A study of Rattus norvegicus with 22 samples.

Results

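The hippocampal subfield identity genes examined here are 8 genes whose expression marks a field of the hippocampus. They were listed by name and by no threshold on these data, but with earlier results of these data known. Prox1, C1ql2 and Calb1 mark the granule cells of the dentate gyrus, Wfs1, Pou3f1 and Fibcd1 mark CA1, and Rgs14 and Amigo2 mark CA2. All 8 were among the 17172 genes of the count table, and 7 of the 8 had enough reads to enter the test across 12875 genes. The exception was Fibcd1. The question was whether the transcripts of the fields changed unequally after traumatic brain injury (TBI), which bears on unequal loss and on unequal dissection.

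Polyadenylated RNA was sequenced from the hippocampus of the injured (right) side of 14 adult male Sprague-Dawley rats. TBI rats received a moderate lateral fluid percussion, a pressure pulse delivered onto the dura through a hole in the skull, and sham rats underwent the same craniectomy and anesthesia without the pulse. The day 1 groups held 2 sham rats and 4 with TBI, and those of day 14 held 4 of each. The hippocampus was removed whole with a spatula, so no field was isolated, and every library mixed all fields with glia, vessels and any attached tissue.

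The hippocampus is a chain of fields. Granule cells of the dentate gyrus receive cortical input and send mossy fibers to CA3, whose axons reach CA1, while the small CA2 field between CA3 and CA1 is known for its resistance to several forms of plasticity. Each field keeps its own set of transcripts in the adult, and in fluid percussion models neurons of the dentate hilus and CA3 are known to be vulnerable. In bulk RNA, fewer cells of a field and less RNA per cell cannot be told apart.

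Of the 8 genes, 5 had a promoter window in the RefSeq table of the rat build GRCr8, and the windows of the 4 genes that were lower in TBI at day 1 than in sham at day 14 are shown because these genes passed the test in that comparison. Each is the 250 bases before the annotated gene start, read 5′ to 3′ on the strand of the gene. Capitals mark an E-box (CAGNTG, the site of basic helix-loop-helix factors) or a GC box (GGGCGG), searched on both strands. C1ql2 lies at chr13:34023652-34023901 on the + strand, Wfs1 at chr14:78034955-78035204 on the + strand, Rgs14 at chr17:9268234-9268483 on the - strand and Amigo2 at chr7:130273736-130273985 on the - strand.
C1ql2: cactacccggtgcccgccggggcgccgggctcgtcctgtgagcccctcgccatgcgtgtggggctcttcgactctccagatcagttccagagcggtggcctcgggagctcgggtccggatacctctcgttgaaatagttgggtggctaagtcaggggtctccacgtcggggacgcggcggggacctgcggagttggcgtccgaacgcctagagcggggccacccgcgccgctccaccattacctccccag
Wfs1: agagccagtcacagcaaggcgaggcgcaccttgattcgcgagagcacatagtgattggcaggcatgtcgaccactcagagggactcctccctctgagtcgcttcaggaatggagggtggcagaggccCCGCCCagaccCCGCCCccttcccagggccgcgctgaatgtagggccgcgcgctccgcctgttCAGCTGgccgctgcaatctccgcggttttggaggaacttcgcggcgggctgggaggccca
Rgs14: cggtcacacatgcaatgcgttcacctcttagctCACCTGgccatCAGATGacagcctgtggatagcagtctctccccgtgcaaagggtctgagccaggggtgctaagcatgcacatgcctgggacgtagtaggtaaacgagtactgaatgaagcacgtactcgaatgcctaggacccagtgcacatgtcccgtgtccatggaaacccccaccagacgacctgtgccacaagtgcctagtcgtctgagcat
Amigo2: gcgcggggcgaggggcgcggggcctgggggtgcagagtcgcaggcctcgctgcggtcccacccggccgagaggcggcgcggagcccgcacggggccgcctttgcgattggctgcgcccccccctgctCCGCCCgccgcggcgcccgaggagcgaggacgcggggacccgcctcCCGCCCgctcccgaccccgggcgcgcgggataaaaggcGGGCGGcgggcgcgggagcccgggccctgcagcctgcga
An E-box was found 1 time before Wfs1 and 2 times before Rgs14, and 43.3% of all 33469 windows hold at least 1. The GC box was found 2 times before Wfs1 and 3 times before Amigo2, against 30.5% of all windows with at least 1. Neither the AP-1 site (TGANTCA, in 6.34% of windows) nor the cAMP response element (TGACGTCA, in 1.59%) was in these 4 windows. G and C made up 68.8% of the C1ql2 window, 66% of the Wfs1 window, 55.6% of the Rgs14 window and 82.8% of the Amigo2 window, against a median of 51.2% over all windows. No motif of those searched was in all 4 windows.

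Libraries held 15065540 to 23743703 counted reads. A pair of day 1 libraries stood apart in the members and in neuronal markers. In TBI day 1 replicate 1, the mean log2 level of 13 pan-neuronal genes was -1.29 relative to sham day 14, against -0.29 to -0.05 in the other TBI day 1 libraries. Sham day 1 replicate 2 was at 0.51 on the same scale, against 0.08 in replicate 1. Choroid plexus genes, which mark tissue attached to the hippocampus, summed to 10740 CPM (counts scaled to library size) in sham day 1 replicate 1 and to 2039 and 8572 in TBI day 14 replicates 2 and 3, and to 113 to 240 in the other 11 libraries. Otx2, a defining choroid plexus gene, was at 0 counts in every library. Where leaving out any of these libraries ends a call or moves a called value by over 1.5 times, the value without it is given beside the result.

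**Figure D1:**
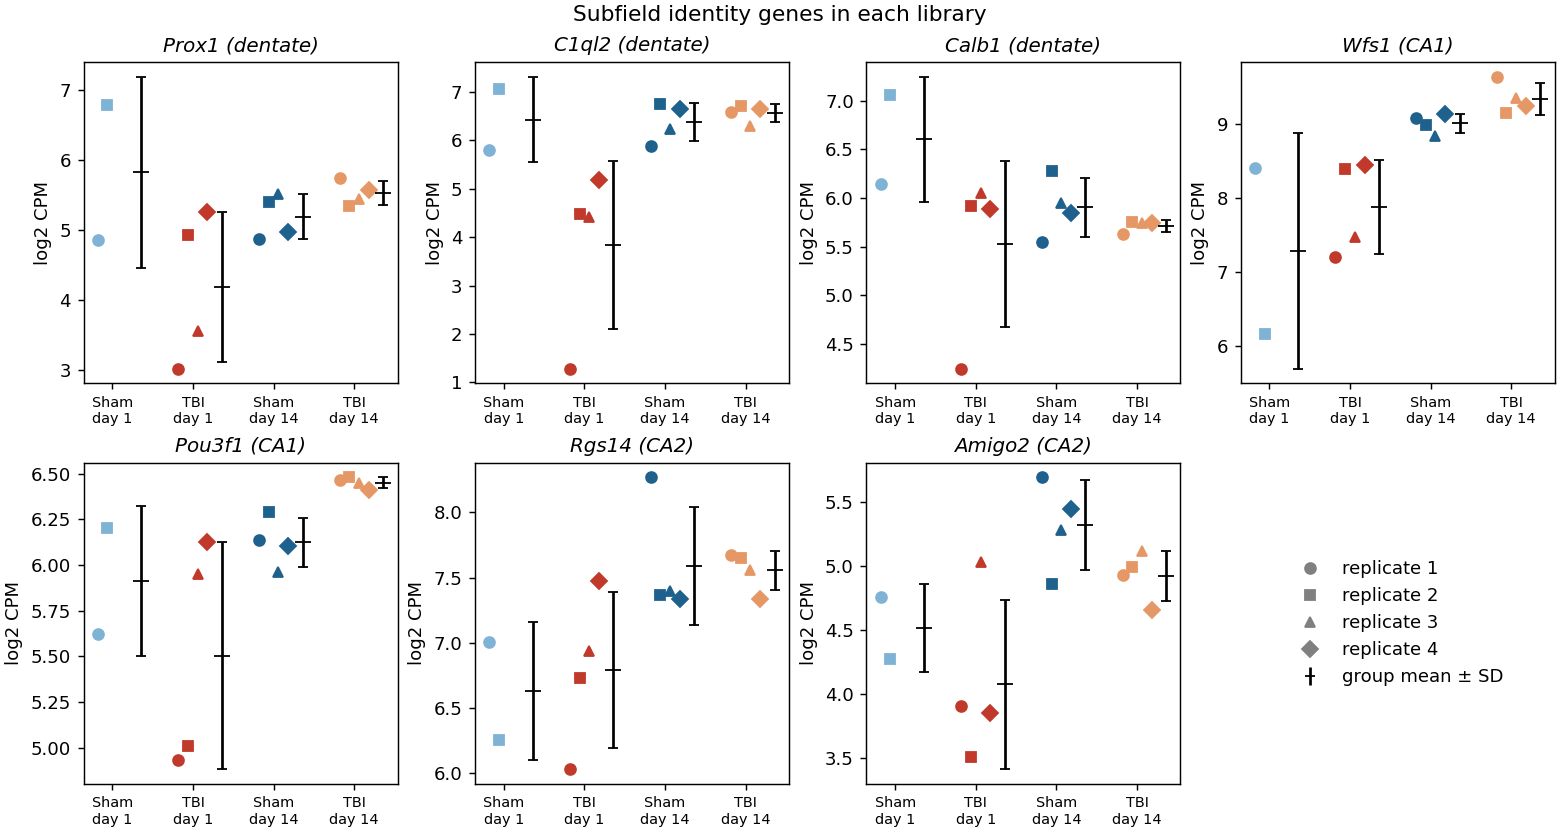
Level of the 7 tested subfield genes in each of the 14 libraries, as log2 CPM on axes that differ between panels. Markers give the replicate, and bars give the group mean ± SD (n = 2 for sham day 1 and n = 4 for the other groups). The day 14 groups are tight, while at day 1 sham replicate 2 is high for the dentate genes and low for Wfs1. TBI day 1 replicate 1 is the lowest library for Prox1, C1ql2 and Calb1, and also for Pou3f1 of CA1 and Rgs14 of CA2.

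At day 1, C1ql2 and Prox1 were lower in TBI than in sham rats, and the third dentate gene, Calb1, and the CA1 and CA2 genes did not pass the test. The difference between fields was not tested. Of the 7 genes, 2 fell, against 7.93% of all tested genes that fell and 19.1% that changed in either direction (edgeR quasi-likelihood test, adjusted p under 0.05). The median log2 fold change was -1.66 over the 3 dentate genes, -0.02 over the 2 CA1 genes and -0.07 over the 2 CA2 genes, beside -0.02 over all tested genes. The gap between dentate and CA1 depended on sham day 1 replicate 2. Without that library, Prox1 was at -0.39, C1ql2 at -1.44 and Calb1 at -0.47. In the same fit Wfs1 was at -0.44, Pou3f1 at -0.02 and Rgs14 at -0.12.

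C1ql2 encodes a secreted C1q-like protein of mossy fiber synapses that gathers kainate receptors there. Its levels were 5.80 and 7.06 log2 CPM in the sham day 1 libraries and 1.29, 4.48, 4.43 and 5.19 in TBI replicates 1 to 4. Every TBI library lay below both sham libraries, and replicate 1, with 45 reads, was the lowest by far. C1ql2 fell by 2.20 on the log2 scale (SE 0.57, adjusted p = 0.0157 by edgeR). Without sham day 1 replicate 2, the log2 fold change was -1.44 and the call was lost (adjusted p = 0.255 by edgeR), with the remaining sham library assumed to vary like the other groups. With only the day 1 groups fitted it was -2.18 and not called (adjusted p = 0.13 by edgeR), and without TBI replicate 1 it was -1.83 (adjusted p = 0.00168 by edgeR).

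Prox1 encodes the homeobox factor that specifies and maintains granule cell identity. Its levels were 4.86 and 6.79 log2 CPM in sham and 3.03, 4.93, 3.56 and 5.26 in TBI. The groups overlapped, since sham replicate 1 lay below TBI replicates 2 and 4. Prox1 fell by 1.66 on the log2 scale (SE 0.51, adjusted p = 0.0334 by edgeR), and this value depended on single libraries: it was -0.39 without sham replicate 2 (adjusted p = 0.753 by edgeR), -2.33 without sham replicate 1, and -1.45 without TBI replicate 3 (adjusted p = 0.0752 by edgeR). It was -1.39 without TBI replicate 1 (adjusted p = 0.0487 by edgeR) and -1.63 with only the day 1 groups fitted, where the call was lost (adjusted p = 0.186 by edgeR).

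Calb1 encodes calbindin, a cytosolic calcium buffer that is abundant in granule cells and also present in other neurons. It was at 6.15 and 7.06 log2 CPM in sham and at 4.24, 5.92, 6.05 and 5.89 in TBI. The TBI libraries were all lower than the sham libraries, 3 of them by a narrow margin to sham replicate 1. The log2 fold change of -0.998 (SE 0.36) missed the threshold (adjusted p = 0.0618 by edgeR), and it was -0.47 without sham replicate 2 and -1.38 without sham replicate 1 (adjusted p = 0.0277 by edgeR). Without TBI replicate 1 it was -0.72 and passed (adjusted p = 0.0368 by edgeR), and DESeq2 called it at -1.01. Thus 2 of the 7 genes, C1ql2 and Calb1, had groups that did not overlap with TBI lower, against 14.1% of all tested genes.

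The CA1 genes gave a different picture in the same libraries. Wfs1, which encodes the endoplasmic reticulum membrane protein wolframin, was at 8.41 and 6.16 log2 CPM in sham and at 7.19, 8.38, 7.46 and 8.44 in TBI. TBI replicates 1 to 3 lay between the sham libraries and replicate 4 was just above both, and the log2 fold change was 0.29 (SE 0.45, adjusted p = 0.683 by edgeR). Its sign turned with the sham library left out: 1.81 against replicate 2 alone (adjusted p = 0.0098 by edgeR) and -0.44 against replicate 1 alone.

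Pou3f1 encodes a POU-domain transcription factor of CA1 pyramidal neurons. It was at 5.62 and 6.20 log2 CPM in sham and at 4.93, 5.01, 5.95 and 6.12 in TBI. TBI replicates 1 and 2 were below both sham libraries and replicates 3 and 4 were between them, and the fitted difference was -0.34 log2 (SE 0.28, adjusted p = 0.416 by edgeR). Fibcd1, whose product is a receptor that binds acetylated sugars such as chitin, is used as a CA1 marker in the mouse. It had 0 reads in all 6 day 1 libraries, which allows a level of up to 0.122 to 0.162 CPM (3 counts per library, counting error only), 0 or 1 read in the sham day 14 libraries, and 0, 1, 2 and 6 reads in the TBI day 14 libraries. Fibcd1 therefore gave no comparison in this table. The interneuron gene Npy and Otx2 were also listed at 0 in all 14 libraries, and whether such values reflect the tissue or the gene models counted was not tested.

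The CA2 genes overlapped between the day 1 groups. Rgs14, a regulator of G protein signaling that restrains plasticity in CA2 neurons, was at 7.002 and 6.25 log2 CPM in sham and at 6.03, 6.73, 6.94 and 7.47 in TBI, with a fitted difference of 0.21 log2 (SE 0.34, adjusted p = 0.705 by edgeR). Amigo2, an adhesion protein with leucine-rich repeats, was at 4.76 and 4.27 log2 CPM in sham and at 3.90, 3.51, 5.03 and 3.85 in TBI. TBI replicate 3 was the highest library of the 6, and the other 3 TBI libraries were the lowest. For Amigo2 the fitted difference was -0.34 log2 (SE 0.34, adjusted p = 0.513 by edgeR). With TBI replicate 3 left out it was -0.77 (adjusted p = 0.0373 by edgeR).

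**Figure D2:**
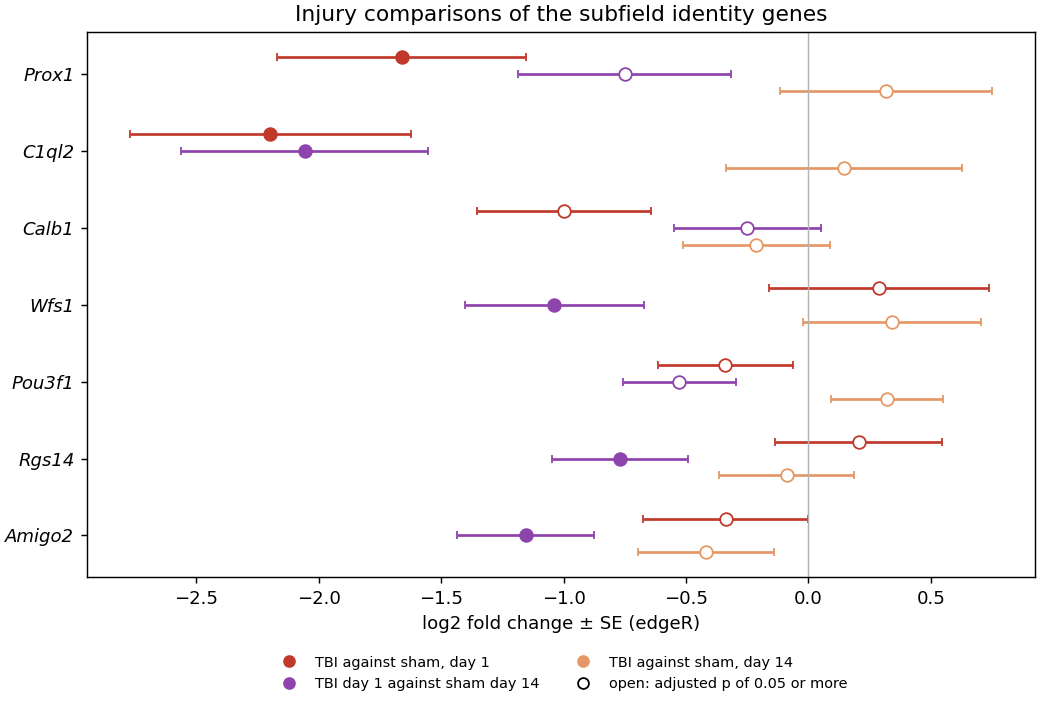
Log2 fold change ± SE from edgeR for the 7 tested genes in 3 injury comparisons, with filled circles for an adjusted p under 0.05. C1ql2 is the gene with filled circles against both sham groups, at -2.20 and -2.06, and no circle of day 14 is filled.

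TBI day 1 was also set against the sham rats of day 14, the baseline the authors chose for time courses. Against them, 4 of the 7 genes were lower in TBI at day 1, with at least 1 gene from each field, beside 21.0% of all tested genes that fell and 46.0% that changed in either direction. The TBI day 1 libraries are the same in both comparisons, so these are not independent. The median over the 7 genes was -0.77, beside 0.01 over all tested genes. Genes of other cell lists were also called lower in this comparison: 6 of 7 interneuron genes fell and 1 rose (median -0.71). In the same comparison 6 of 6 oligodendrocyte genes fell (median -0.98), as did 5 of 13 pan-neuronal genes (median -0.47) and 2 of 4 excitatory neuron genes (median -0.82). Against same-day sham, 4 of 7 interneuron genes, 2 of 6 oligodendrocyte genes and 2 of 4 excitatory neuron genes fell. The part of these lists in the result was not tested.

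C1ql2 was at 5.89, 6.74, 6.25 and 6.66 log2 CPM in the sham day 14 libraries, so that every TBI day 1 library was lower. It fell by 2.06 on the log2 scale (SE 0.51, adjusted p = 0.00415 by edgeR) and was called under all 18 alternatives run, with log2 fold changes from -2.504 to -1.69. Amigo2 was at 5.69, 4.86, 5.28 and 5.45 in sham day 14 and fell by 1.15 (SE 0.28, adjusted p = 0.00388 by edgeR). TBI replicate 3, at 5.03, overlapped with sham replicate 2. Amigo2 was called under 17 of 18 alternatives, the exception being the scaling to pan-neuronal genes. Amigo2 is also part of a reactive astrocyte panel. The 7 other panel genes listed here summed to 427 to 596 CPM in TBI day 1 libraries. In sham day 14 libraries they summed to 124 to 142 CPM, so their direction was opposite to that of Amigo2. The part of astrocytes in the Amigo2 result was not tested.

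Wfs1 was at 9.07, 8.98, 8.84 and 9.13 log2 CPM in sham day 14 and was lower in every TBI day 1 library, with a fall of 1.04 (SE 0.37, adjusted p = 0.0309 by edgeR). Rgs14 was at 8.27, 7.37, 7.39 and 7.33 in sham day 14 and fell by 0.77 (SE 0.28, adjusted p = 0.0342 by edgeR), although TBI replicate 4, at 7.47, was above 3 of the 4 sham libraries. Both calls were fragile: with each of the 8 libraries left out in turn, Wfs1 was called 3 times and Rgs14 4 times. Without TBI day 1 replicate 1, Wfs1 was at -0.85 and Rgs14 at -0.57, and without sham day 14 replicate 1, the highest for Rgs14, Rgs14 was at -0.48; none of these was called. With either of these libraries left out, 2 genes were called, C1ql2 and Amigo2. Groups that did not overlap, with TBI lower, were seen for C1ql2 and Wfs1 (2 of 7), against 17.8% of all tested genes.

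Prox1 was at 4.88, 5.41, 5.52 and 4.98 log2 CPM in sham day 14, and its log2 fold change was -0.75 (SE 0.44, adjusted p = 0.174 by edgeR). Calb1 was at 5.54, 6.28, 5.95 and 5.85, and its log2 fold change was -0.25 (SE 0.30, adjusted p = 0.522 by edgeR). Both genes overlapped between these groups. Pou3f1, at 6.14, 6.29, 5.96 and 6.10, differed by -0.53 log2 (SE 0.23, adjusted p = 0.0741 by edgeR) and passed in limma-voom at -0.62 and in DESeq2 at -0.54. Of the 2 dentate genes that fell against same-day sham, then, C1ql2 also fell against sham day 14, and Prox1 did not pass there.

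The sham groups were compared with each other in the same way. Between sham day 1 and sham day 14, 0 of 7 genes were called by edgeR, beside 19.1% of all tested genes, while 3 of 7 had an unadjusted p under 0.05, limma-voom called 1 (Wfs1) and DESeq2 called 2 (Wfs1 and Rgs14). The log2 fold change was -1.33 for Wfs1 (SE 0.47, adjusted p = 0.0615 by edgeR) and -0.97 for Rgs14 (SE 0.35, adjusted p = 0.0658 by edgeR). It was -0.82 for Amigo2 (adjusted p = 0.114 by edgeR), 0.91 for Prox1 (adjusted p = 0.222 by edgeR) and 0.75 for Calb1 (adjusted p = 0.151 by edgeR). It was 0.14 for C1ql2 (adjusted p = 0.894 by edgeR) and -0.19 for Pou3f1 (adjusted p = 0.679 by edgeR). Wfs1, Rgs14 and Amigo2 (3 of 7) were lower in both sham day 1 libraries than in every sham day 14 library, against 20.1% of all tested genes. Wfs1 was called without sham day 1 replicate 1, at -2.85, and was at -0.60 without replicate 2.

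To compare fields within a library, the levels of the members of a field were averaged as log2 CPM relative to the sham day 14 mean. Sham day 1 replicate 2 stood at 1.14 for the dentate genes, -1.39 for CA1 and -1.19 for CA2, so that its dentate level exceeded its CA1 level by 2.53. Sham day 1 replicate 1 had -0.22, -0.55 and -0.57, a difference of 0.33 between dentate and CA1. In the 4 sham day 14 libraries the difference between dentate and CA1 ran from -0.43 to 0.24, so replicate 2 lay far outside that range and replicate 1 just above it.

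Within TBI day 1, replicate 1 was at -2.98 for dentate, -1.50 for CA1 and -1.49 for CA2, and the other markers of CA3 were at -2.46. Replicates 2, 3 and 4 were at -0.72, -1.15 and -0.39 for dentate, at -0.87, -0.86 and -0.28 for CA1 and at -1.34, -0.47 and -0.79 for CA2. The other CA3 markers were at -1.01, -0.92 and -0.55 in them, so that all 4 TBI day 1 libraries were below the sham day 14 range of -0.13 to 0.11. This CA3 mean includes Coch, a gene with few reads. Coch had 0, 31, 10 and 127 reads in TBI day 1 replicates 1 to 4 and 12 to 23 in sham day 14. The CA3 level was not computed without Coch. The differences between dentate and CA1 in replicates 2, 3 and 4 were 0.15, -0.29 and -0.10, within the range of the sham day 14 libraries. That of replicate 1, at -1.47, lay below it. The mean difference over the 4 TBI day 1 libraries was -0.43 ± 0.72 (SD, n = 4), and it was -0.08 without replicate 1. For dentate against CA2 the mean was -0.29 ± 0.98 (SD, n = 4), and it was 0.12 without replicate 1. In sham day 1 the difference between dentate and CA1 averaged 1.43 over values of 0.33 and 2.53.

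**Figure D3:**
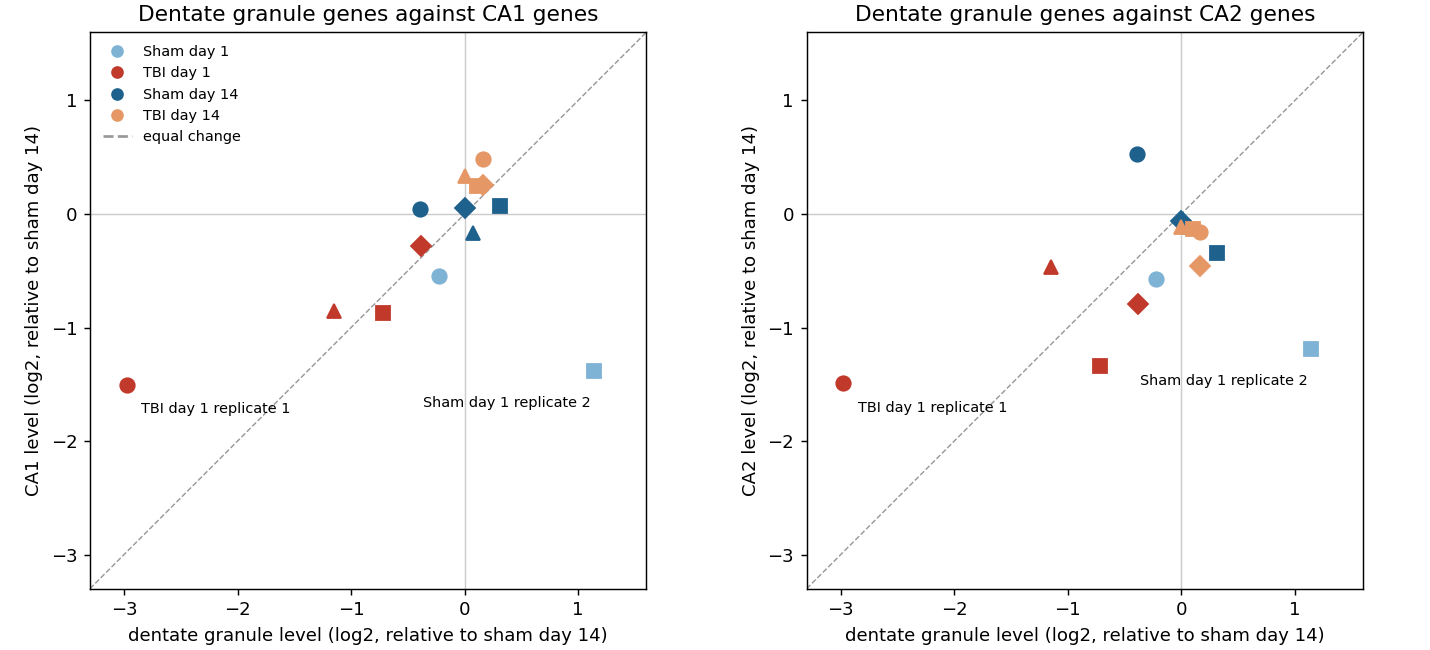
Dentate level (x axis) against the CA1 level (left) and the CA2 level (right) in each of the 14 libraries, as mean log2 CPM of the members relative to the sham day 14 mean. The dashed line marks equal change, and marker shapes give the replicate as in the plot of single genes. Sham day 1 replicate 2 lies to the lower right, with dentate high and CA1 and CA2 low, and TBI day 1 replicate 1 lies to the far left at -2.98.

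Ratios of single genes within a library showed the same library apart. The log2 ratio of Prox1 to Wfs1, relative to sham day 14, was 4.45 in sham day 1 replicate 2 and lay between -0.39 and 0.63 in the other 13 libraries, the 4 TBI day 1 libraries included. The ratio of C1ql2 to Wfs1 was 3.52 in sham day 1 replicate 2, and -3.29, -1.29, -0.42 and -0.63 in TBI day 1, against -0.56 to 0.38 in sham day 14. The genes of a field did not move as 1 unit. In sham day 1 replicate 2, Pou3f1 was at the level of sham day 14 while Wfs1 was not, with a log2 ratio of Pou3f1 to Wfs1 of 2.92. In TBI day 1, the ratio of C1ql2 to Prox1 was -2.93, -1.64, -0.32 and -1.26. It lay below the sham day 14 range of -0.46 to 0.50 in 3 of these 4 libraries. The same ratio was -0.25 and -0.92 in sham day 1 replicates 1 and 2, so that replicate 2 lay below that range too.

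Other markers of each field were taken from a list drawn up by field, also with earlier results of these data known. Of 11 further dentate markers 7 were in the table and 6 were tested. At day 1 against same-day sham 4 fell, beside 7.93% of all tested genes. These were Plk5, a polo-like kinase, at -2.18 (adjusted p = 0.000129 by edgeR), the scaffold gene Pdzd2 at -0.73 (adjusted p = 0.013 by edgeR), the transcription factor Rfx3 at -1.55 (adjusted p = 0.0171 by edgeR) and Stxbp6, which binds SNARE proteins, at -1.16 (adjusted p = 0.0288 by edgeR). Without sham day 1 replicate 2, 1 of these was called, and the same count held when TBI day 1 replicate 1 was left out as well. With sham day 1 replicate 2 alone left out, Plk5 was at -1.91, Pdzd2 at -0.61, Rfx3 at -0.41 and Stxbp6 at -0.56. Plk5 was at 4.56 and 5.06 log2 CPM in sham day 1 and at 2.50, 2.51, 2.99 and 2.60 in the TBI libraries of that day. On day 14 it was at 5.81 to 6.90 in sham and 6.00 to 6.86 in TBI. Of these 4, Plk5 was called under all 16 alternatives at day 1 and the other 3 were not. Between the sham groups, Plk5 was called lower at day 1, at -1.81 (adjusted p = 0.00282 by edgeR). Stxbp6 went the other way in that comparison, at 1.52 (adjusted p = 0.00919 by edgeR). Pdzd2, at 0.27, and Rfx3, at 0.12, were not called there. With sham day 14 as the baseline, Stxbp6 did not fall in TBI day 1, at 0.37 (adjusted p = 0.325 by edgeR). Plk5, Pdzd2 and Rfx3 were called lower against that baseline. The part of the sham shift in the Stxbp6 result was not tested.

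Of 6 further CA1 markers 3 were tested, and 0 fell at day 1 by edgeR, limma-voom or DESeq2, none of them with an unadjusted p under 0.05. Over all tested genes 7.93% fell in that comparison by edgeR. Of 9 further CA2 markers 6 were tested and 2 fell, Ntf3, which encodes a neurotrophin, at -1.70 (adjusted p = 0.00534 by edgeR) and Sostdc1, a secreted antagonist of BMP and Wnt signals, at -8.26 (adjusted p = 0.0112 by edgeR). Ntf3 was at -1.22 and not called without sham day 1 replicate 2. Its levels were 4.07 and 4.91 log2 CPM in sham day 1 and 1.73, 2.99, 2.79 and 3.43 in TBI. Whether the fall of Ntf3 came from CA2 cells was not tested. The Sostdc1 value was set by sham day 1 replicate 1, which had 3558 reads against 6 in replicate 2 and 4 to 11 in TBI, and Sostdc1 was high in the libraries with high choroid plexus sums, with 362 and 1976 reads in TBI day 14 replicates 2 and 3. Its log2 fold change was 0.14 without sham day 1 replicate 1 and 0.21 with a choroid plexus score as covariate.

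CA3, which has no gene among the 8, was followed by 8 markers of which 6 were tested. At day 1, 4 fell against same-day sham: the kainate receptor subunit gene Grik4 at -1.19 (adjusted p = 0.000754 by edgeR), the zinc finger factor St18 at -1.43 (adjusted p = 0.00381 by edgeR), Bok of the BCL2 family at -0.97 (adjusted p = 0.0168 by edgeR) and the copine Cpne4 at -1.51 (adjusted p = 0.0382 by edgeR). Over all tested genes 7.93% fell against same-day sham at day 1. The same 4 CA3 genes were lower than in sham day 14, with Grik4 at -1.89 and Bok at -1.16. Grik4 was also lower in sham day 1 than in sham day 14, at -0.71 (adjusted p = 0.0277 by edgeR). St18, Bok and Cpne4 were not called between the sham groups. Against same-day sham without replicate 2, Grik4 was at -1.03 and St18 at -0.89, and without sham replicate 1 Bok was at -0.68. Cpne4 was called under 10 of 16 alternatives at day 1, with log2 fold changes from -1.91 to -0.93. With a sample left out it ranged from -1.78 without TBI replicate 4 to -1.18 without TBI replicate 1. The median over the 6 CA3 genes was -1.11 at day 1, beside -0.94 over the 6 other dentate genes, -0.07 over the 3 other CA1 genes and -0.28 over the 6 other CA2 genes. With either sham day 1 library left out, 2 CA3 genes were called at day 1, and without TBI day 1 replicate 1 all 4 were. Against sham day 14 the counts of further markers called lower were 3 of 6 for dentate, 2 of 3 for CA1, 3 of 6 for CA2 and 4 of 6 for CA3. Of all tested genes 21.0% were called lower there. The dentate marker Lct was instead called higher, at 2.18 (adjusted p = 0.0327 by edgeR). It had 4 to 26 reads in TBI day 1 and 1 to 4 in sham day 14. The CA1 count was 0 when TBI day 1 replicate 2 or sham day 14 replicate 4 was left out, and 1 with TBI day 1 replicate 1 or 4 or sham day 14 replicate 1, 2 or 3 left out.

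**Figure D4:**
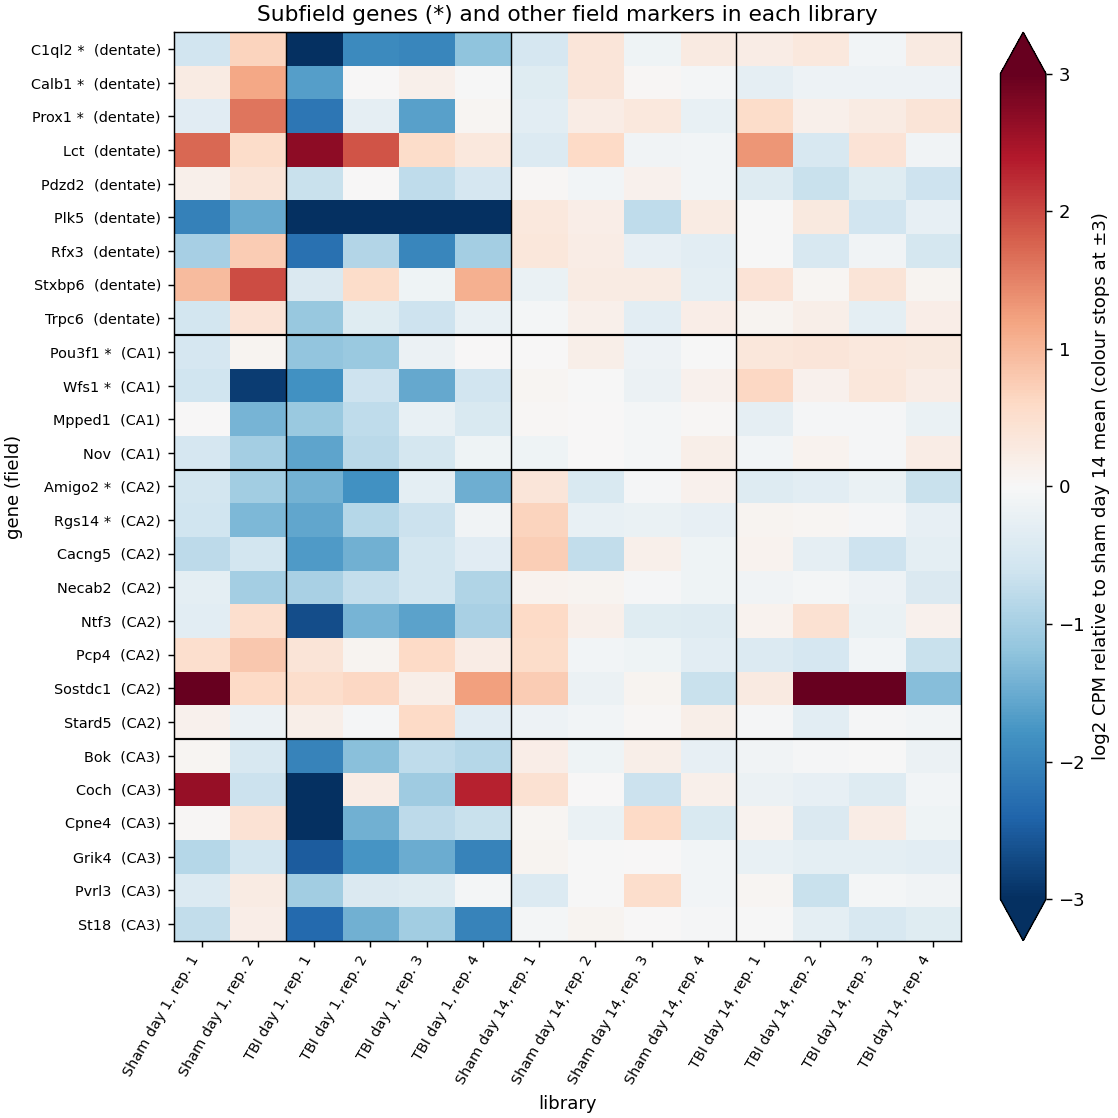
Log2 CPM relative to the sham day 14 mean for the 7 tested subfield genes (starred) and 20 other field markers in each library, with the colour scale ending at ±3. Blue in the TBI day 1 columns is found among the genes of all 4 fields and is mostly darkest in replicate 1, while Lct, Pcp4 and Sostdc1 are red in all 4 of these columns, Plk5 is blue in all 4 TBI day 1 libraries, and Sostdc1 is dark red in sham day 1 replicate 1 and TBI day 14 replicates 2 and 3.

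Markers of neighbouring tissue also differed between groups. Of 6 listed neocortex genes, 5 were in the table, and they summed to 152 to 190 CPM in the day 1 sham libraries and 140 to 236 in those of TBI, and on day 14 to 103 to 127 in sham and 80.5 to 100 in TBI. The 6 thalamus genes summed to 79.8 to 110 CPM (sham) and 91.2 to 111 (TBI) on day 1, and to 50.1 to 61.1 (sham) and 82.7 to 108 (TBI) on day 14. No gene of either list was at 0 in any library. Both lists were higher in every day 1 library than in every sham day 14 library, where Wfs1, Rgs14 and Amigo2 were lower in sham day 1. Their part in these results was not tested. Of the 13 pan-neuronal genes, 4 fell at day 1 and the median over the list was -0.74 log2, so part of the neuronal list moved together with the dentate genes. Each library was also scaled to that list, after which C1ql2 was the gene of the 7 still called against either sham group. This scaling moved the median of all genes to 0.86 at day 1 and to 0.61 against sham day 14. It therefore cannot separate a change of a field from a change of the neuronal list, whose part was not tested.

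At day 14 none of the 7 genes passed the test against same-day sham. By edgeR 0 of 7 genes were called, beside 4.43% of all tested genes, with 0 of 7 at an unadjusted p under 0.05 and 0 by limma-voom and DESeq2. The median over the 7 genes was 0.15, beside -0.03 over all tested genes. C1ql2 was at 6.60, 6.70, 6.29 and 6.65 log2 CPM in TBI day 14, a fitted difference of 0.15 log2 (SE 0.48, adjusted p = 0.964 by edgeR) against the sham day 14 levels given above. Prox1 was at 5.75, 5.35, 5.45 and 5.58 (log2 fold change 0.32, SE 0.43, adjusted p = 0.874 by edgeR). Calb1 was at 5.62, 5.75, 5.75 and 5.74 (log2 fold change -0.21, SE 0.30, adjusted p = 0.881 by edgeR). All 3 dentate genes overlapped between the groups.

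Both tested CA1 genes lay above sham in every TBI day 14 library, without passing the test. Wfs1 was at 9.64, 9.14, 9.34 and 9.24 log2 CPM (log2 fold change 0.34, SE 0.36, adjusted p = 0.82 by edgeR). Pou3f1 was at 6.46, 6.48, 6.45 and 6.41 (log2 fold change 0.32, SE 0.23, adjusted p = 0.672 by edgeR). Groups that did not overlap, with TBI higher, were thus seen for 2 of 7 genes, against 9.13% of all tested genes. With the day 14 groups fitted alone, Pou3f1 passed at 0.36 (adjusted p = 0.0187 by edgeR). Rgs14 was at 7.67, 7.65, 7.56 and 7.34 (log2 fold change -0.09, adjusted p = 0.96 by edgeR) and Amigo2 at 4.93, 4.99, 5.11 and 4.65 (log2 fold change -0.42, adjusted p = 0.631 by edgeR), both with overlapping groups. The difference between dentate and CA1 levels was -0.33 to -0.10 in the TBI day 14 libraries, within the sham day 14 range. The difference between CA1 and CA2 levels was 0.64, 0.38, 0.45 and 0.72 in TBI day 14 replicates 1 to 4, a mean of 0.55 ± 0.16 (SD, n = 4), against -0.49 to 0.42 in sham day 14, so that 3 of 4 libraries lay above that range. This contrast between fields was not tested. With TBI day 14 replicate 2 or 3 left out, the libraries with high choroid plexus sums, 0 of 7 genes were called at day 14, and Wfs1 was at 0.41 and 0.36 and Pou3f1 at 0.31 and 0.34.

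The change of the injury effect between days was tested directly. The day 1 effect minus the day 14 effect was -2.34 for C1ql2 (SE 0.75, adjusted p = 0.0988 by edgeR) and -1.98 for Prox1 (SE 0.67, adjusted p = 0.116 by edgeR). By edgeR 0 of 7 genes were called, beside 3.68% of all tested genes, with 2 of 7 at an unadjusted p under 0.05 and 0 by limma-voom and DESeq2. C1ql2 was called without TBI day 1 replicate 1, at -1.97, and without TBI day 1 replicate 4, at -2.76, and Prox1 without sham day 1 replicate 1, at -2.64, and without TBI day 1 replicate 4, at -2.37. For the other 5 genes the difference lay between -0.79 for Calb1 and 0.30 for Rgs14.

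Genes with the most similar profiles over the 14 libraries were named for each member by Pearson's r of log2 CPM, as a description, since the libraries share groups. C1ql2 was most similar to Gpc3 (r = 0.99), Lrrn3 (0.98) and Sema5a (0.98), and Prox1 to Kbtbd11 (0.96), Pcdhga12 (0.95) and Tiam1 (0.94). Calb1 was most similar to Kitlg (0.94), Nsg1 (0.93) and Nrn1 (0.92). Wfs1 was most similar to Cd3e (0.93), Adrb1 (0.91) and Exoc3l4 (0.90), and Pou3f1 to Lmo2 (0.94), Abhd6 (0.92) and Rcn3 (0.91). Rgs14 was most similar to Tmem54 (0.94), Arhgef28 (0.92) and Olfml2b (0.92), and Amigo2 to Cyp2t1 (0.92), Cog4 (0.91) and Camkv (0.90). No gene appeared for more than 1 member.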

How the data were processed

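RNA-seq counts of 14 rats were used as deposited: the authors aligned single-end reads to rn5 with STAR 2.4.2a with gene counts by featureCounts 1.5.0 over the UCSC annotation, without normalization. In R 4.3.3 with edgeR 4.0.16, counts were scaled by TMM, filtered by group, and fitted with 1 mean per group over all 14 samples. P-values were two-sided and Benjamini-Hochberg adjusted over 12875 genes, with a threshold of 0.05. They measure a spread between rats that was pooled over all groups. The groups differed in spread: the SD of C1ql2 was 1.74 log2 CPM in TBI day 1 and 0.18 in TBI day 14. Some calls changed with only the groups compared fitted. Log2 CPM used a prior count of 2. All 8 members are named. Of other field markers called at either day at most 4 per field are named by smallest adjusted p, with Plk5, Ntf3, Grik4 and Sostdc1 among them, and also the 3 genes most similar to each tested member with a mean log2 CPM of at least 1. Members and lists were chosen with earlier results of these data known. Alternatives were limma-voom (limma 3.58.1), DESeq2 1.42.0, median-of-ratios factors, scaling to the pan-neuronal list, no filter, a floor of 10 counts per sample, the replicate number as a block, a choroid plexus covariate, only the groups compared, and each sample left out. Replicates differed beyond counting noise in every group. Same-numbered samples did not deviate together (18 pairs, r from -0.35 to 0.24), so numbers were not taken as pairs. Scripts were tested on simulated data. Peak lists were not used here, since no annotation of rn5 was used. The source text gives 2 sham rats at day 14 in its methods, and the 4 labelled samples were used. Of the other CA1 markers, 1 is counted in its list but is not reported by name or drawn here.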

Additional observations from a re-analysis of the deposited data

Results flagged for a closer look

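Several values stood apart from the rest of their group of 4 libraries. Calb1 was at 4.24 log2 CPM in TBI day 1 replicate 1 (others 5.89 to 6.05) and at 5.62 in TBI day 14 replicate 1 (others 5.74 to 5.75). Rgs14 was at 8.27 in sham day 14 replicate 1 (others 7.33 to 7.39), Grik4 at 7.48 in TBI day 14 replicate 1 (others 7.38 to 7.39) and Plk5 at 5.81 in sham day 14 replicate 3 (others 6.78 to 6.90). The mean CA1 level relative to sham day 14 was -0.16 in sham day 14 replicate 3 (others 0.04 to 0.07), and the mean CA2 level was -0.46 in TBI day 14 replicate 4 (others -0.16 to -0.12). Over 51 combinations of gene and group and 15 of field level and group, 7 such values were found, and chance gives about 1 in 20.

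The effect of TBI differed between days for a pair of field markers by a test of the difference itself. Plk5 had a day 1 effect that was lower than its day 14 effect by 2.02 on the log2 scale (a value of -2.02, adjusted p = 0.0083 by edgeR). Sostdc1 had a difference of -15.7 (adjusted p = 0.00916 by edgeR). It was -0.72 with a choroid plexus score as covariate and -7.35 without sham day 1 replicate 1.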

How the results depend on the processing

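Of 637 values of the 7 genes under alternatives, 594 kept their direction or stayed uncalled, 22 became called, 21 lost their call and 0 reversed. At day 1 against same-day sham, 2 genes were called, 0 with only those groups fitted, 1 (C1ql2) when scaled to pan-neuronal genes, 1 without both sham day 1 replicate 2 and TBI day 1 replicate 1 (chosen after seeing the data), and 0 to 4 with a sample left out. At day 14, 0 genes were called, 1 (Pou3f1) with only those groups, and 0 with any sample left out. For TBI day 1 against sham day 14, 4 genes were called, 1 when scaled to pan-neuronal genes and 2 to 5 with a sample left out. Between sham groups 0 were called, 1 by limma-voom, 2 by DESeq2, 1 with at least 10 counts in every sample, 1 with the choroid plexus covariate, 1 with only those groups (Amigo2) and 0 to 1 with a sample left out. For the difference between days the range was 0 to 2. Scaling to pan-neuronal genes moved the median log2 fold change of all genes to 0.86 at day 1 and to 0.61 against sham day 14. It moved the share of called genes that were higher from 58.5% to 97.8% and from 54.4% to 91.9%, and from 60.8% to 83.6% for the difference between days. Under it Pdzd2 turned to 0.12 at day 1 and to 0.11 against sham day 14, and Pou3f1, at 0.43, and Amigo2, at 0.45, were above 0 at day 1. Sostdc1 turned to 0.21 at day 1 with the choroid plexus covariate and to 0.14 without sham day 1 replicate 1, its range with a sample left out being -9.26 to 0.14.

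With the replicate number as a block, 3 genes were called at day 1 (Calb1 added, -1.16, adjusted p = 0.0199 by edgeR), 0 at day 14, 3 for TBI day 1 against sham day 14 (Rgs14 lost, -0.74, adjusted p = 0.0632 by edgeR), 0 between sham groups and 0 for the difference between days. The numbers did not pair the samples.

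With other markers added to the members, the dentate minus CA2 level was -0.0833 in sham day 1 (1.34 from members) and -0.28 in TBI day 14 (0.32 from members). The added CA2 markers included Sostdc1, which was high in the libraries with high choroid plexus sums. Its mean was 3.10 log2 CPM in sham day 1 and 1.51 in TBI day 14, against -1.98 in sham day 14. The CA2 level was not computed without Sostdc1, so these values do not show a reversal across CA2 markers. Leaving out a sample, dentate minus CA1 ranged from 0.33 to 2.53 in sham day 1, -0.62 to -0.08 in TBI day 1 and -0.26 to -0.19 in TBI day 14, and dentate minus CA2 from 0.35 to 2.33, -0.59 to 0.12 and 0.22 to 0.39. With 2 sham day 1 libraries, each decides the same-day comparison. The 7 tested genes had at least 45 reads in every library, and Fibcd1 had 0 to 6. The cause of these changes was not tested.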
